A study of Mus musculus with 16 samples.

Results

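Induction of Notch1 in embryonic stem cells (ESC) was followed on 4 of the 16 arrays of the series: EB5 ESC carrying the NERT construct, without and with 4-hydroxytamoxifen (OHT), in each of 2 media. NERT is the intracellular domain of Notch1 made inducible by OHT, and it was expressed from a pCAG vector. The labels do not say how many transfected clones were used. The cells were cultured for 4 h either in ESCe medium, a medium with serum replacement and no foetal calf serum (FCS), or in ESCm medium, which contained serum replacement and 1% FCS, and OHT was given at 1 µM for 4 h. Each combination of medium and OHT was hybridised to 1 array, so that the medium served as a block and the responses in the 2 media as the only repeats. The other arrays were used for comparison alone: 4 arrays of EB5 cells with an empty control vector, with and without OHT, as ESC in ESCm medium and as mesodermal cells, and 8 arrays of EB5 NERT mesodermal cells, kept for 4 d on collagen IV, without and with OHT and without and with the protein synthesis inhibitor cycloheximide (CHX, 50 µg/ml for 4 h), in 2 replicates each. The question was which genes answer to activated Notch1 in undifferentiated cells, and whether the medium changes the answer.

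A Notch receptor is cut when it meets a ligand on a neighbouring cell. The released fragment has no DNA-binding domain of its own and reaches its genes through RBP-J (encoded by Rbpj) and Mastermind coactivators. Genes for Hes and Hey proteins, which repress differentiation factors, are among those switched on this way in many tissues. In ESC the pathway is mostly known for favouring entry into the neural lineage over self-renewal.

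The deposited values are linear expression intensities, with array medians of 42 to 46.9 over 45037 probe sets. Changes are given as log2 ratios after adding 25 to each intensity, which understates those of weakly expressed genes. They were tested with limma over the 25847 probe sets that reached a mean of 50 in at least 1 of the 12 conditions, with the spread taken from all 16 arrays (6 residual degrees of freedom). A probe set was called at a Benjamini-Hochberg adjusted p under 0.05, and errors are standard errors (SE). The labels do not say that the arrays came from separate cultures, and the p-values therefore cover the scatter of these arrays alone, which may be technical. Where a gene had several probe sets, the one with the strongest average signal over all 16 arrays was quoted, provided that it named no other gene. That average included the induced arrays, so the choice can favour a probe set that rises with OHT. The counts by quoted probe set and the named rises share this limit. The 4 arrays carried the markers of ESC: Pou5f1, which encodes the core pluripotency factor Oct4, was at 2854 to 2954, Zfp42 (Rex1) at 4337 to 5164 and Nanog at 1909 to 2715. The summed level of 9 ESC markers was 17469 to 18291, and none of them was under 50 on all 4 arrays. The 7 markers of primitive streak and mesoderm summed to 576 to 660, and of these Aplnr, Msgn1, Tbx6 and Mixl1 stayed under 50 on all 4 arrays. The summed level of 5 markers of fibroblasts, which can serve as feeder cells, was 636 to 830. Col1a2 was at 383 to 511 and Col1a1 at 156 to 215, Thy1 at 47.7 to 61.0, and Lum and Dcn stayed under 50. The 6 endoderm markers summed to 240 to 285 and the 4 trophoblast markers to 154 to 208. Sums of different probe sets are not comparable with each other.

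The start sites of genes that rose are shown for reference, as RBP-J binds DNA at a motif with the core TGGGAA. Windows of 250 bases before the start site were read from RefSeq (build GRCm38.p6) for 75 of the 92 genes called higher. The core stood on either strand in 26 of these 75 genes (34.7%), against 24.1% of all 27025 genes of the table. The longer form GTGGGAA, which contains the core, stood in 12 (16% against 6.2%). A pair of TGGGAA and TTCCCA separated by 15 to 17 bases stood in 1 (1.333% against 0.015%). None of the 3 matched genes called lower held the core, which says only that these letters are not in these windows. Windows are printed 5' to 3' on the gene's strand, with each core or its reverse complement in capitals. They are those of 3 members of the pathway (Hes5, Hey2, Lfng), of Gucy1a1, which held 3 cores, and of Ehd3, which held the pair. The windows were picked after their values were seen. Gucy1a1 had a further window at another start site (chr3:82145651-82145900), which held no core and is not printed.
Hes5 (chr4:154960673-154960922, plus strand): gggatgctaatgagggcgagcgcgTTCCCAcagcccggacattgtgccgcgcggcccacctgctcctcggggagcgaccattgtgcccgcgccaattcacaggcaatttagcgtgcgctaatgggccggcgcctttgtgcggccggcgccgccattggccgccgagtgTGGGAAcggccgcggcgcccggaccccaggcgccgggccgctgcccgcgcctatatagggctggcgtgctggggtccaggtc
Hey2 (chr10:30842784-30843033, minus strand): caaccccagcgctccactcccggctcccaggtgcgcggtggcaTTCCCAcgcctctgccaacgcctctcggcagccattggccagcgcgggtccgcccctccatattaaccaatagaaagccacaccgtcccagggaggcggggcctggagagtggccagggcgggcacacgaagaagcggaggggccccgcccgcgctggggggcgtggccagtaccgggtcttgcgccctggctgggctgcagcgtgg
Lfng (chr5:140607091-140607340, plus strand): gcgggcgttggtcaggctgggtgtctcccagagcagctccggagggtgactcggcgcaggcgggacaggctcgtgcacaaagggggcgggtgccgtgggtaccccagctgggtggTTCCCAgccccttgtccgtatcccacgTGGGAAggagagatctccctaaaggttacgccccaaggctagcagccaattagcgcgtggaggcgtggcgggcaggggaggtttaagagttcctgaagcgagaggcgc
Gucy1a1 (chr3:82145074-82145323, minus strand): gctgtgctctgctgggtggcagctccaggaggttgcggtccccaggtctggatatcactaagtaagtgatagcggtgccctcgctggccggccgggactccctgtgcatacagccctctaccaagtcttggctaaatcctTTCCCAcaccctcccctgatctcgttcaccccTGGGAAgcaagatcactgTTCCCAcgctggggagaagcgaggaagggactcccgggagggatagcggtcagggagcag
Ehd3 (chr17:73804591-73804840, plus strand): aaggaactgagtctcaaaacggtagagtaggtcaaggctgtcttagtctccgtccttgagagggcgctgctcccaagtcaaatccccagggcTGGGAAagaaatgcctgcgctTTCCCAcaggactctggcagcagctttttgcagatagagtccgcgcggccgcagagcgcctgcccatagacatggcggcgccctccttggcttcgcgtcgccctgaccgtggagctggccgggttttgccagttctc
The windows of Nrarp, the gene with the largest rise, and of the Notch ligand gene Jag1 held no core. A match describes the letters only, and no binding was measured.

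OHT raised far more probe sets than it lowered in NERT ESC. In all, 131 of the 25847 probe sets were called higher (0.507%) and 8 lower (0.031%). They stood for 104 and 7 genes. By the quoted probe set, 92 of the 12763 genes tested (0.721%) were called higher and 6 (0.047%) lower, the shares beside which the counts within the gene lists are to be read. The lists were chosen with earlier results known, and most hold so few genes that 1 call is far above that share. Of the 131 rises, 91 reached 1 on the log2 scale and 14 reached 2. The median change of the rises was 1.19 in ESCe and 1.16 in ESCm. All called probe sets had the same sign in both media, which is no separate result, as the test was of the change shared by the 2 pairs. Likewise, on all 131 both induced arrays lay above both uninduced ones. That order was also seen in 34.0% of all tested probe sets, and the opposite order in 11.6%, since the median over all tested probe sets was 0.068 in ESCe and 0.063 in ESCm. Quantile normalization took the median of the ESC response from 0.064 to -0.001 and gave 139 rises and 17 falls. The same 131 probe sets had a median change of -0.01 in control ESC (range -0.54 to 0.36). In control cells 0 probe sets were called by limma, and 308 had an unadjusted p under 0.05. The difference between NERT ESC and control cells itself passed the test for 37 probe sets (0.143%), 36 of which were among the rises and 1, Pou3f1, among the falls. In these tests the control response was shared by control ESC in ESCm medium and control mesodermal cells, and no control was in ESCe medium.

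The counts rest on both media and on how the spread is taken. With 1 array of the ESCe pair left out, 27 rises and 1 fall were called, and with 1 of the ESCm pair left out 26 and 0. Without a mesodermal array with CHX and OHT, 219 or 217 rises and 15 falls were called. Without any one control array the falls came to 5, and the differences from control cells to 7 or 11. The same differences came to 7 or 10 with an ESC array left out, and to 62 without a mesodermal array with CHX and OHT. The 20 genes with the largest rises and the 6 that fell kept their direction in each case, which is no separate result. They were chosen for the same sign in both media, and the other arrays do not enter the estimate of the change.

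**Figure D1:**
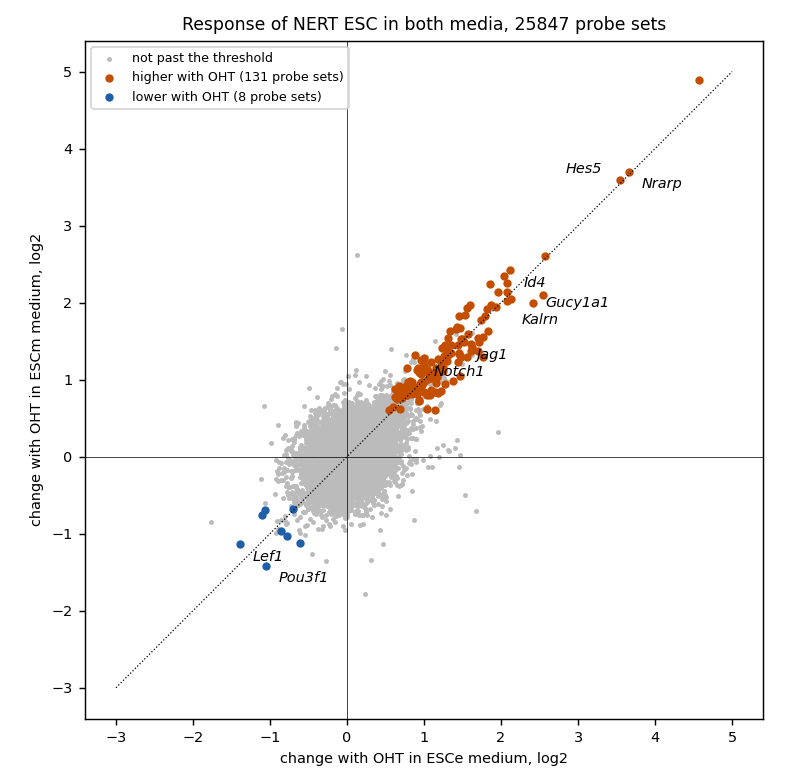
Change with OHT in ESCe medium (horizontal axis, log2) against that in ESCm medium (vertical axis, log2) for the 25847 tested probe sets of NERT ESC, 1 point per probe set. The 131 probe sets called higher (orange) and the 8 called lower (blue) lie along the dotted line of equal change, and the unlabelled point at the upper right is the other probe set of Nrarp.

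The 2 largest changes belonged to Nrarp and Hes5. Nrarp, an ankyrin repeat protein that restrains Notch signaling, went from 110.3 to 1690.5 in ESCe and from 113 to 1769 in ESCm, a ratio of 15.3 and 15.6, and stayed at 54.9 and 57.6 in control ESC. Its log2 change was 3.68 ± 0.19 (adjusted p = 1.11e-06), and its other probe set was called as well, at 4.73. Hes5, a Hes repressor that keeps neural progenitors undifferentiated, went from 31.6 to 632 and from 25.4 to 584 (3.57 ± 0.18, adjusted p = 1.11e-06). The control ESC arrays of Hes5 were at 13.95 and 16.65.

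Of 7 tested Hes and Hey repressors, 4 rose and none fell, with a median change of 1.26 against 0.073 over all genes tested. Besides Hes5 these were the 3 Hey genes, which act in heart and vessels. Hey2 went from 52.7 to 271 and from 49.7 to 262 (1.94 ± 0.21, adjusted p = 0.000664). Hey1 went from 46.8 to 191 and from 32.8 to 202 (1.78 ± 0.18, adjusted p = 0.000463). Heyl, from 29.6 to 105 and from 23.5 to 92.0, had the lowest change of the 4 (1.26 ± 0.23, adjusted p = 0.0267), and its other 2 probe sets, at 1.01 and 0.19, were not called. Hes1, the Hes gene most often taken as a Notch target, was at 191 and 341 in ESCe and at 186 and 373 in ESCm. Both induced arrays were higher, but its change of 0.84 ± 0.23 did not pass the test (adjusted p = 0.223). Hes6 and Hes7 had changes of -0.13 and -0.01.

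Among 11 Notch receptors and ligands, 2 rose and none fell (median 0.05). Jag1, a ligand, went from 342 to 1027 in ESCe and from 327 to 960.0 in ESCm (1.5 ± 0.15, adjusted p = 0.00035). Its other 2 probe sets, at 1.34 and 0.22, were not called. Notch1 itself went from 469.7 to 934 and from 351 to 872 (1.11 ± 0.22, adjusted p = 0.0474), and both its probe sets were called. In control ESC Notch1 was at 301 and 303. Whether these probe sets also read the transgene was not tested. The ligands Dll1, Dll3, Dll4 and Jag2 had changes of -0.15 to 0.05, and Notch2, Notch3 and Notch4 of 0.01 to 0.33.

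Of 17 modulators of the pathway 3 rose (median 0.19). Besides Nrarp these were Lfng, a glycosyltransferase that changes which ligands a receptor answers to, and Dtx1, a Deltex ubiquitin ligase. Lfng went from 43.4 to 127 and from 36.1 to 93.3 (1.05 ± 0.15, adjusted p = 0.00628). Dtx1 went from 130.1 to 246 and from 122 to 237 (0.82 ± 0.14, adjusted p = 0.0228). None of the 16 genes of the cleavage machinery and the nuclear complex was called (median 0.14). Rbpj was at 2666 and 2476 in ESCe and at 2602 and 2662 in ESCm.

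**Figure D2:**
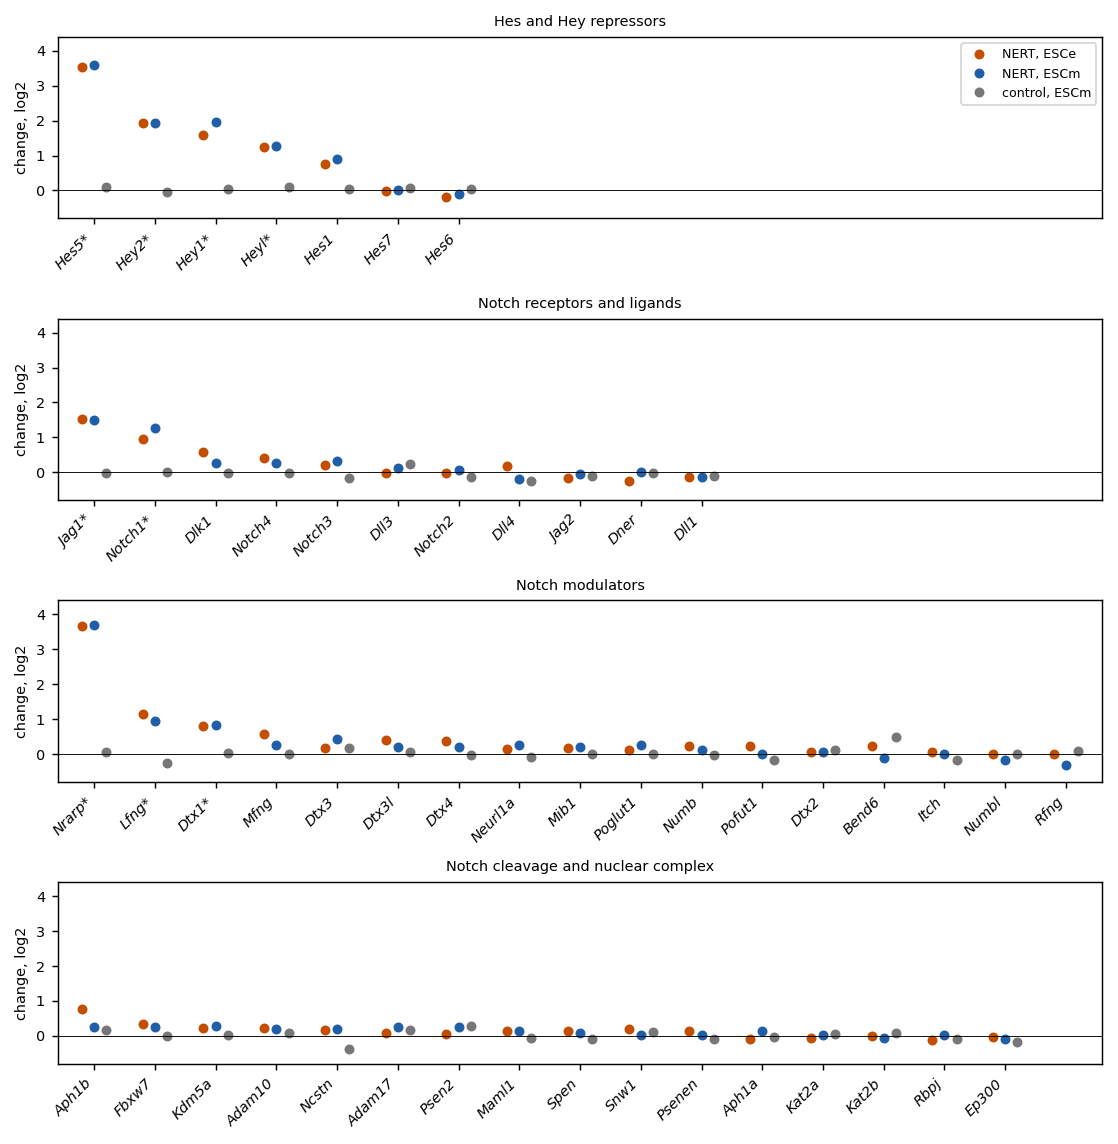
Change with OHT (vertical axis, log2) of each tested member of 4 lists of Notch pathway genes, 1 point per pair of arrays, in NERT ESC in ESCe (orange) and ESCm (blue) and in control ESC in ESCm (grey). Genes called in NERT ESC carry an asterisk, and their orange and blue points lie above 0 while the grey points stay near 0.

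Id proteins bind basic helix-loop-helix factors and keep them off DNA. Of 7 genes for Id and E proteins 2 rose. Id4 went from 102 to 528 in ESCe and from 65.9 to 461 in ESCm (2.27 ± 0.21, adjusted p = 0.000211), and all 3 of its probe sets were called. Id1 went from 382 to 1089 and from 346 to 1284 (1.64 ± 0.27, adjusted p = 0.0137). Id3 was at 187 and 384 in ESCe and at 209 and 475 in ESCm, but did not pass the test (1.02 ± 0.31, adjusted p = 0.336). Id2 had a change of -0.09 ± 0.29.

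Of 15 Sox genes, Sox9 alone was called, a regulator of cartilage, gonad and neural stem cells. It went from 11.6 to 95.0 and from 13.7 to 83.3 (1.60 ± 0.23, adjusted p = 0.00528), and 1 of its 3 probe sets was called. Of 19 genes of the neuroectoderm 3 rose, though the median of the list was 0.01. Fabp7, a lipid-binding protein of radial glia, went from 57.1 to 322 and from 44.6 to 307 (2.17 ± 0.13, adjusted p = 7.37e-06). Pax6, a regulator of eye and brain development, went from 115.3 to 257.9 and from 93.8 to 234.7 (1.07 ± 0.17, adjusted p = 0.011). Another probe set of Pax6 had a change of -0.10. The RNA-binding protein Msi1 went from 84.1 to 205 and from 82.8 to 163 (0.94 ± 0.12, adjusted p = 0.00334). Nes, which encodes the neural filament Nestin, was at 222 and 444 and at 218 and 422, with a change of 0.90 ± 0.33 that did not pass (adjusted p = 0.591). Gbx2, listed as a factor of the hindbrain border, was at 577 and 292.3 and at 494 and 235.4 (-0.96 ± 0.24, adjusted p = 0.154). Whether it acts as a neural gene in ESC was not tested. The 19 genes of the list, whose median was 0.01, thus did not move together. The summed level of 5 neuroectoderm markers, Fabp7, Pax6 and Nes among them, was 471 without and 1065 with OHT in ESCe and 422 and 1006 in ESCm, while Neurog2 stayed under 50 on all 4 arrays and Sox1 went the other way, at 63.1 and 36.8 in ESCe and at 57.2 and 30.4 in ESCm. Whether neural cells in the cultures had a part in this was not tested, and in whole cultures a change in the share of a cell type and in its RNA per cell cannot be told apart.

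None of 27 pluripotency genes was called, with a median of 0.02. Nanog was at 1909 and 2674 in ESCe and at 2058 and 2715 in ESCm (0.44 ± 0.13, adjusted p = 0.342), and Klf2 at 1782 and 1274 and at 1595 and 1003 (-0.57 ± 0.37, adjusted p = 0.996). Likewise none was called among 21 genes of primitive streak and mesoderm (median 0.03), 11 of endoderm (0.05), 9 of trophoblast (-0.09), 12 of apoptosis (0.09) and 10 of retinoic acid signaling (0.00). None of 7 oestrogen receptors and oestrogen-responsive genes was called either, a list examined because OHT binds oestrogen receptors. Their changes ran from 0.09 to 0.62, with a median of 0.34 against 0.073 over all genes tested. Greb1 had the largest (0.62 ± 0.15, adjusted p = 0.139).

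Several rises encoded signaling proteins. Of 15 ephrins and Eph receptors 3 rose, all of them ephrins, the membrane-bound ligands. Efna1 went from 15.3 to 91.7 and from 10.7 to 103 (1.69 ± 0.27), Efna3 from 109.5 to 319 and from 78.6 to 258 (1.40 ± 0.22), and Efnb1 from 174 to 529 and from 160.1 to 429 (1.39 ± 0.16). Efna1 and Efna3 each have a second probe set that was not called (1.32 and 0.64). Of the 3 probe sets of Efnb1, 1 was not called (1.35). No Eph receptor was called. Of 19 sphingolipid genes 2 rose: the sphingomyelin synthase Sgms2 from 51.6 to 289.8 and from 33.0 to 269.9 (2.19 ± 0.17, adjusted p = 5.7e-05), and the receptor S1pr3 from 22.8 to 176 and from 19.6 to 171 (2.10 ± 0.22, adjusted p = 0.000463). Both genes have a second probe set that was not called, with 0.76 for Sgms2 and 0.25 for S1pr3. Inhbb, an activin subunit and the only rise among 18 genes of BMP and Nodal signaling, went from 329.8 to 938 and from 326 to 931 (1.44 ± 0.16, adjusted p = 0.000637), and its second probe set was not called (0.36). Vegfa, the vessel growth factor, was called at 0.88 ± 0.16 (adjusted p = 0.0346), but its second probe set was at 150.4 and 149.1 in ESCe and at 144.3 and 133.7 in ESCm.

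Genes for both kinds of subunit of soluble guanylate cyclase, the receptor for nitric oxide, rose. Gucy1a1 went from 6.74 to 144 and from 4.01 to 90.6 (2.21 ± 0.16, adjusted p = 3.94e-05), although its other 2 probe sets, at 0.69 and 0.16, were not called. Gucy1b1 went from 33.7 to 103 and from 24.7 to 80.8 (1.11 ± 0.20, adjusted p = 0.0275). Gucy1b1, like Ehd3, lies outside the rule for named genes and was picked after its values were seen.

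The rest of the 20 largest rises served varied roles. Kalrn went from 70.2 to 391 and from 68.9 to 365 (2.09 ± 0.19), with 1 further probe set called (1.33) and 2 not (0.17 and 0.34), and the tyrosine kinase Tec from 71.2 to 323 and from 47.3 to 316 (2.05 ± 0.17). Prickle1, of the planar cell polarity pathway, went from 105 to 453 and from 89.0 to 420.2 (1.92 ± 0.23), while its second probe set had a change of 0.01. The stress-induced Gadd45b went from 334 to 1239 and from 369 to 1462 (1.86 ± 0.13) and was the only called gene among 22 of the cell cycle list. Tns2 (Tensin 2), Rhov, Hspb8 (a small heat shock protein), Scel (Sciellin) and Fjx1 (a relative of Four-jointed) had changes between 1.65 and 1.81. In each of these 9 genes both induced arrays lay above both control ESC arrays, which is no separate result. The genes were chosen for the largest rises on these induced arrays, and the share of all tested probe sets in that order was not counted.

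**Figure D3:**
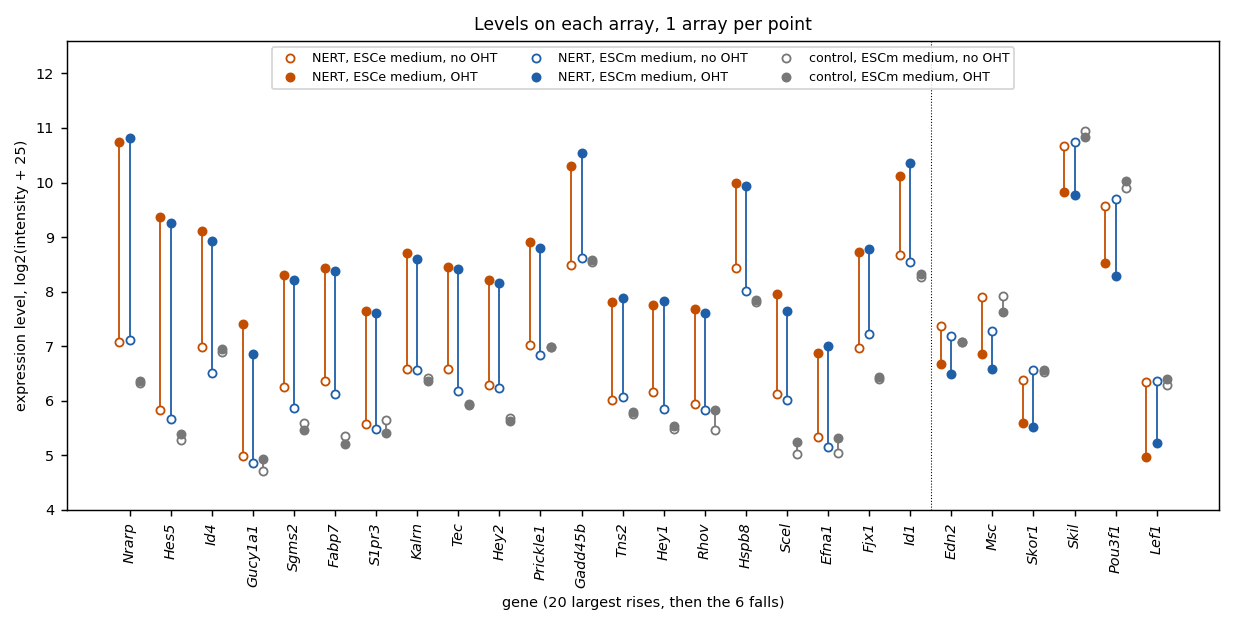
Expression level (vertical axis, log2 of intensity plus 25) of the 20 genes with the largest rises and the 6 genes that fell, 1 array per point, without OHT (open) and with OHT (filled), in NERT ESC in ESCe (orange) and ESCm (blue) and in control ESC (grey). In NERT ESC the filled points of both media lie on the same side of the open ones for all 26 genes, which their choice required.

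Of 19 immediate early genes Egr1 was the only one called, from 483 to 789.6 and from 619.9 to 961 (0.65 ± 0.13, adjusted p = 0.0431). Changes in the list ran from -0.50 to 0.86, with a median of 0.43 against 0.073 over all genes tested. Ier5 (0.86 ± 0.19, adjusted p = 0.103) and Egr3 (0.76 ± 0.21, adjusted p = 0.221) lay above Egr1 without passing. Dusp1, a MAP kinase phosphatase, was the only rise among 23 genes of FGF and MAP kinase feedback, from 1301 to 2364 and from 1160.2 to 2287 (0.91 ± 0.12, adjusted p = 0.00343). Cdh1 (E-cadherin) went from 2742 to 4020.0 and from 2598 to 3951, the smallest change of any called probe set (0.57 ± 0.10, adjusted p = 0.0214). No other gene of 19 for adhesion was called.

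**Figure D4:**
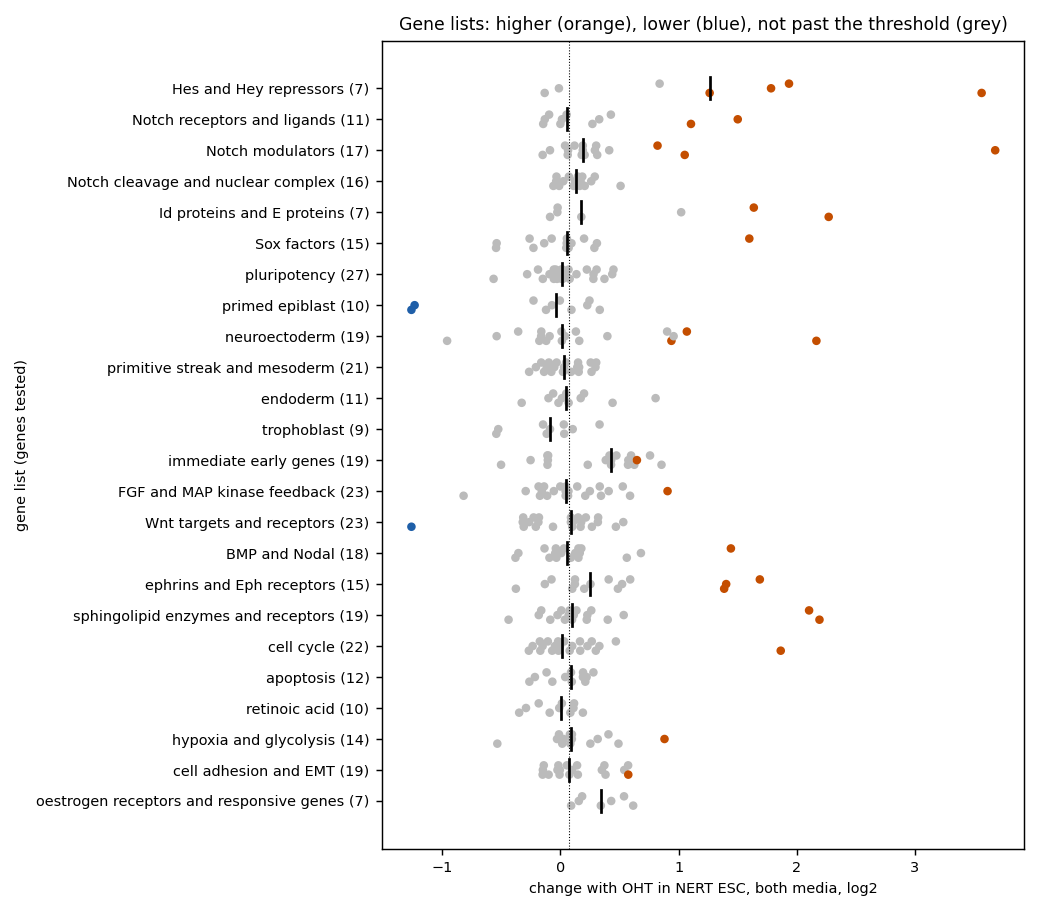
Change with OHT in NERT ESC over both media (horizontal axis, log2) of each tested gene of 24 lists, with the number tested in parentheses, the list's median as a black bar and the median of all genes (0.073) as a dotted line. Genes called higher are orange, genes called lower blue and all others grey, and the Hes and Hey repressors have the highest median (1.26).

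By the quoted probe set 6 genes fell. Pou3f1 (Oct6), a POU factor of the primed epiblast and of glia, went from 735 to 342 in ESCe and from 807 to 286 in ESCm (-1.24 ± 0.13, adjusted p = 0.000637). It was at 929 and 1021 in control ESC, and its second probe set was not called (-0.92). Lef1, a nuclear partner of beta-catenin in Wnt signaling, went from 56.5 to 6.21 and from 57.7 to 12.5 (-1.26 ± 0.20, adjusted p = 0.0123), and its second probe set had a change of -0.30 and was not called. Skil (SnoN), which holds back TGF-beta signaling, went from 1609 to 881 and from 1686 to 848 (-0.91 ± 0.14, adjusted p = 0.00814), while its second probe set was not called (-0.45). Its relative Skor1, the bHLH repressor Msc and the peptide Edn2 fell by 0.91, 0.88 and 0.69 on the log2 scale, with adjusted p-values of 0.0431, 0.029 and 0.0466 in limma. None of the 6 falls kept its call under all 28 alternatives tried, and Edn2 lost it under 16, Skor1 under 15 and Msc under 12. Flrt2, which encodes a membrane protein, was called lower by one of its probe sets (-0.93), and the quoted one had a change of -0.21. On all 8 called probe sets both induced arrays lay below both uninduced ones. This is no separate result, as the calls came from these arrays. Pou3f1 and Lef1 were the only called genes of 10 for the primed epiblast, whose median was -0.04, and Lef1 the only one of 23 for Wnt signaling (median 0.09).

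No difference between the media in the response was called. For 0 probe sets did the response differ between ESCe and ESCm by limma, and 185 (0.7%) had an unadjusted p under 0.05. This test was weak, as 1 pair of arrays stands for each medium and the median SE of the difference was 0.37, so that it does not show the responses to be alike. Among the 139 called probe sets the difference, ESCm minus ESCe, ran from -0.54 to 0.45, and 137 lay within 0.5 of 0. This closeness describes the called probe sets alone and is in part fixed by their choice, since a disagreement between the media counts as error in the test that called them. For Nrarp it was 0.03 ± 0.44, for Hes5 0.06 ± 0.43 and for Pou3f1 -0.37 ± 0.32. The largest difference of all belonged to a probe set of Pabpn1, a poly(A)-binding protein, at 225 and 249.6 in ESCe and at 243 and 1623 in ESCm (2.49 ± 0.32, adjusted p = 0.307), a gene named after its values were seen.

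By the criteria of a ratio of at least 2 and a difference over 50, read on 1 pair of arrays with no test, 150 probe sets (0.58%) were higher and 13 (0.0503%) lower in ESCe, and 159 (0.615%) higher and 22 (0.0851%) lower in ESCm. In control ESC the counts were 12 and 10. After quantile normalization ESCe gave 136 higher and 30 lower, and ESCm 156 and 56. Both media shared 105 higher probe sets, 70.0% of those of ESCe and 66.0% of those of ESCm, and 3 lower ones (23.1% and 13.6%), and 0 were opposite. The 45 higher in ESCe alone had a median log2 change of 0.48 in ESCm, against 0.063 over all tested probe sets. The 54 higher in ESCm alone had a median of 0.69 in ESCe, against 0.068 over all. Of the 105 shared, 85 were also called by limma. The other 20 included Id3, the growth factor Hbegf (from 1074 to 2168 and from 1083 to 2193, adjusted p = 0.294) and the protocadherin Pcdh8 (from 54.6 to 220.0 and from 52.4 to 211, adjusted p = 0.0689), picked after their values were seen.

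Some of the genes that rose were already higher in uninduced NERT ESC than in uninduced control ESC in the same ESCm medium. This was compared between 1 array each, without a test. The median difference of the 131 rises was 0.13 on the log2 scale, against -0.03 over all tested probe sets, and 22 of them (16.8%) were at least 0.5 higher in the uninduced NERT cells, against 3.7% of all. At least 0.5 lower were 5 of them (3.8%), against 3.0% of all. Examples picked after their values were seen follow. Jag1 was at 327 in uninduced NERT and 139 in uninduced control ESC, Pax6 at 93.8 and 34.6, Nrarp at 113 and 54.9, and Fabp7 at 44.6 and 16. In the other direction, Gas6 was at 137 and 281 and Efna3 at 78.6 and 136. Activity of NERT without OHT and other differences between the NERT and the control cells cannot be told apart here.

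Most of the rises were also seen in NERT mesodermal cells, on other arrays. The calls there, without and with CHX, used the same estimate of the spread per probe set as those in ESC, so they are not independent of them. There, 288 probe sets (1.11%) were called higher and 248 (0.959%) lower. Of the 131 rises of ESC, 78 (59.5%) were among the 288, of which they made up 27.1%. The median change of the 131 there was 0.99, against -0.04 over all tested probe sets. In mesodermal cells treated with CHX, which called 229 probe sets higher (0.886%), 75 of the 131 (57.3%) were called, which made up 32.8% of that list. Of the 8 falls 2 were called lower in mesodermal cells (25%, and 0.81% of the 248), namely Pou3f1 at -0.83 and Skil at -0.82. Of the rises, 53 were not called in mesodermal cells, but for only 1 of these did the difference between the populations pass the test.

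That gene was Prickle1, at 468 and 348 without OHT and at 408 and 258 with OHT on the mesodermal arrays, a response of -0.29 ± 0.23 against 1.92 ± 0.23 in ESC (difference 2.21 ± 0.32, adjusted p = 0.0466). Pax6 was at 36.9 and 17.2 and at 27.1 and 26.0 in mesodermal cells, but its difference of 1.06 ± 0.24 did not pass (adjusted p = 0.197). S1pr3 had a difference of 1.78 ± 0.31 (adjusted p = 0.104). In all, 8 probe sets (0.031%) differed, of which 7 had the lower response in ESC. This count was 2 without an ESCe array, 0 without an ESCm array, 3 or 5 without an uninduced mesodermal array, 5 without an uninduced CHX array and 19 without an induced CHX array. Rhov rose in both populations, by 1.76 in ESC and by 4.23 in mesodermal cells (difference -2.47 ± 0.27, adjusted p = 0.00698). Egr1 went from 195 and 184 to 1329.9 and 1273 in mesodermal cells (difference -1.98 ± 0.18, adjusted p = 0.00221). Dand5, an antagonist of Nodal, had a difference of -2.50 ± 0.27, the phosphatase Dusp2 of -2.03 ± 0.26 and the interferon-induced Ifit1 of -2.26 ± 0.27, and none of these 3 was called in ESC. Ifit1 was at 3.7 to 8.8 on the ESC arrays. The difference for Hes5 (-1.36 ± 0.26, adjusted p = 0.127) did not pass.

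**Figure D5:**
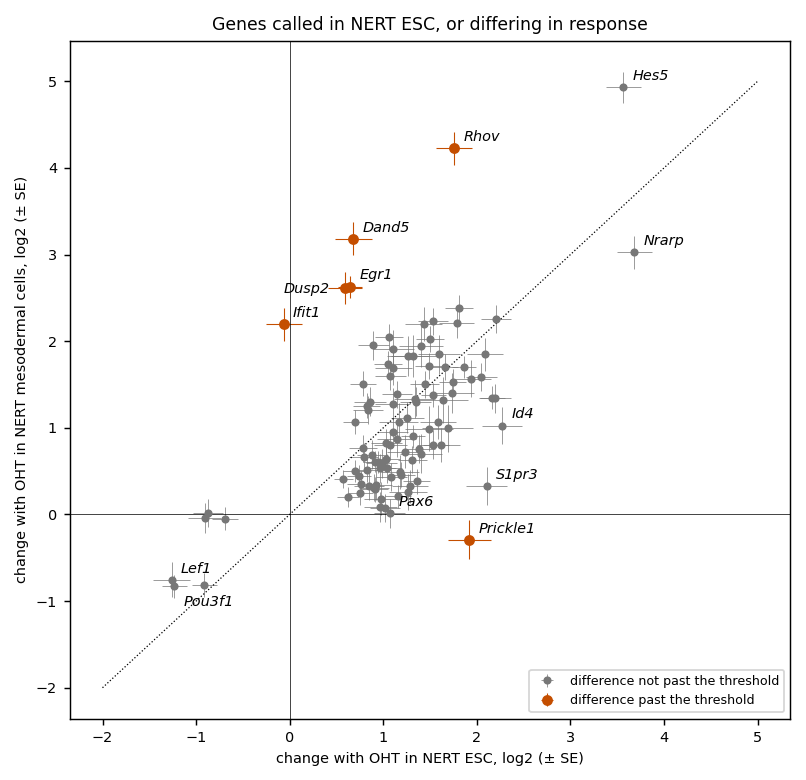
Response to OHT in NERT ESC (horizontal axis, log2) against that in NERT mesodermal cells without CHX (vertical axis, log2), 1 point per gene with bars of 1 SE, for genes called in ESC or differing between the populations. The 6 genes whose difference passed the test (orange) are Prickle1 below the dotted line of equal response and Rhov, Dand5, Egr1, Dusp2 and Ifit1 above it.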

How the data were processed

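Expression was measured on Affymetrix Mouse Genome 430 2.0 arrays. The authors computed the deposited values, linear expression intensities, with dChip and used invariant-set normalization, with the control mesoderm +OHT array as the baseline. Detection calls were not used here. Groups were read from the sample labels. Of 45037 probe sets 34945 name 1 gene symbol in the platform annotation, 932 name several and 9160 name none. Of the 34945, 34884 matched a gene of the RefSeq table.

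Intensities were tested as log2(intensity + 25) in R 4.3.3 with limma 3.58.1 (lmFit, then eBayes with a trend on the mean). The model had 10 coefficients: a baseline for each culture, and OHT effects for NERT ESC (shared by the media), control cells, and mesodermal cells without and with CHX. The media were compared in a fit of 12 conditions (4 residual degrees of freedom), in which single arrays are taken to vary as replicated ones do. All tests are two-sided. The number of arrays limits the precision.

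Named genes are the 20 largest rises and the called falls with the same sign in both media, called genes of 24 lists, up to 5 genes per direction for each difference, members of the Notch lists and 3 ESC markers. List genes given without a call were picked after their values were seen. The choice of arrays, the lists and the rules were made with earlier results of these data known. On simulated arrays the ESC test over 25847 probe sets recovered 67% of 100 changes of 2-fold and 95% of 100 of 3-fold, with 8 calls among the unchanged. These shares were not split by expression level. They are not to be read as the sensitivity for weakly expressed genes, whose changes are understated by the constant added to each intensity. Alternatives were other pseudocounts, filters, normalization, spread models and leaving out arrays. Python 3.11.15 and matplotlib 3.10.9 made tables and figures.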

Additional observations from a re-analysis of the deposited data

Results flagged for a closer look

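The response to OHT differed between groups of samples in a test of the difference itself (limma, Benjamini-Hochberg adjusted p under 0.05) for 37 probe sets between NERT ESC and control cells and for 8 between NERT ESC and NERT mesodermal cells. Among the latter, the log2 response in ESC minus that in mesodermal cells was 2.21 for Prickle1, -2.50 for Dand5, -2.47 for Rhov, -2.26 for Ifit1, -2.03 for Dusp2 and -1.98 for Egr1. The cause of these differences was not tested.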

How the results depend on the processing

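No gene of the 20 rises and 6 falls changed direction under any alternative. With arrays left out, this was fixed by their choice for the same sign in both media. Of the 26, 13 were called under all 28, among them Nrarp, Hes5, Id4 and Gadd45b. Calls were lost for 13 without an ESCm array, 11 without an ESCe array and 6 with the 12 conditions as groups. Counts are given as rises and falls in NERT ESC, then differences from control and from mesodermal cells. With 12 conditions as groups they were 73, 3, 12 and 3, of which 71 rises and 3 falls were also among the 131 and 8. The replicate number of the mesodermal arrays as a block gave 198, 15, 61 and 20. Same-numbered deviations correlated at 0.01 to 0.49, so the numbers were not taken as pairs. The 4 NERT ESC arrays alone (1 residual degree of freedom) gave 2695 rises and 619 falls. Leaving out the 4 CHX arrays, chosen after seeing the data, gave 221, 14, 70 and 28. Quantile normalization gave 17 falls. The difference from mesodermal cells came to 17 with a pseudocount of 50, to 5 with a filter on the NERT ESC arrays and to 16 without the medium block. With 1 array left out in turn there were 26 to 219 rises, 0 to 15 falls, and 7 to 62 and 0 to 19 differences. At a ratio of 1.5, ESCe gave 391 higher and 57 lower, ESCm 415 and 131, and both 238 and 21. Quantile normalization gave 30 lower in ESCe, 56 in ESCm and 7 in both. The causes were not tested. The difference between media stayed at 0 in each setting run. Of the rises, 48 were under 50 on both uninduced arrays, where the signal limits the ratio.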
